A study of Arabidopsis thaliana with 8 samples.

Results

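The genes described here are 28 members of the Aux/IAA family and 4 GH3 genes (GH3.1, GH3.3, GH3.5 and GH3.6) of Arabidopsis thaliana, 32 of 30361 features on the array. They were chosen by locus, as features whose name without the gene model number is on a list of auxin response genes, and each of the 32 loci had 1 feature. Leaf RNA was compared between wild type plants (WT) and plants of transgenic line 57, which carry DGTT2, an acyltransferase gene of the green alga Chlamydomonas whose enzyme makes triacylglycerol. Plants of both genotypes were 6 weeks old, raised in soil in days of 16 h light and 8 h darkness at 22 °C, and each genotype gave 4 biologically independent RNA samples, hybridised to 1 array each. All transgenic samples were of 1 line, so DGTT2 and other differences between the line and WT cannot be told apart, and what promoter drives the transgene is not given in the sources used here. Reported values are the log2 expression values that the authors deposited. Differences below are DGTT2 minus WT on this log2 scale, where 1 is a 2-fold ratio.

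Auxin acts by removing repressors. Aux/IAA proteins bind the auxin response factors (ARFs), which sit on the promoters of auxin-responsive genes, and bring the co-repressor TOPLESS to them. Auxin glues an Aux/IAA protein to an F-box receptor of the TIR1/AFB family, the protein is marked with ubiquitin and destroyed, and the ARFs are freed. Many Aux/IAA genes are themselves targets of ARFs, so their transcripts are widely used as a readout of auxin response and form a negative feedback loop. The GH3 genes in this set encode enzymes that join auxin to amino acids and so lower the free hormone, a further arm of the same feedback. In leaves auxin is known for its part in vein patterning, cell expansion and the shade response.

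The leaf label was checked against marker genes. The mesophyll markers RBCS1A, RCA, CA1 and LHCB2.1 lay between 14.78 and 15.99 on every array, and the 9 markers of shoot apex and flower (among them STM, WUS and AG) between 4.98 and 7.41. Array medians, which RMA sets nearly equal, ran from 10.19 to 10.28. The apex and flower markers had a median difference of 0.24, with 6 of 9 higher by mean in DGTT2 (49.7% of all features were). Of the 9, 1 (PI, 0.56, SE 0.21) had an unadjusted p under 0.05 (11.1%, against 10.5% of all features). The range of these 9 markers takes in 5.95, the median over 4414 pseudogene features, so their values may be background. Their part in the results below was not tested. The 5 markers of dividing cells and the 6 of vascular tissue, where Aux/IAA genes are often active, had median differences of 0.04 and 0.02, with 0 of 11 at an unadjusted p under 0.05. The labels place 4 arrays, 2 of each genotype, on each of 2 slides (slide 1 holds replicates 1 and 3, slide 2 replicates 2 and 4), and the positions on a slide differed between the genotypes, so that genotype and array position cannot be told apart. In bulk leaf RNA, fewer cells of a type and less RNA per cell cannot be told apart either. The transcript of DGTT2 itself was not measured.

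None of the 32 auxin response genes was called different between the genotypes, and IAA29 and IAA17 came nearest. With limma and Benjamini-Hochberg adjustment, 0 of 32 passed at an adjusted p under 0.05, against 0.0725% of all features, and 0 of 32 with slide as a block, against 0.227%. At an unadjusted p under 0.05 there were 2 genes, IAA29 with a lower and IAA17 with a higher mean in DGTT2, a share of 6.25% against 10.5% of all features. These 2 genes were also the only ones of the 32 whose genotypes did not overlap (6.25%, against 5.64% of all features). The median difference of the 32 genes was -0.01 and that of all features -0.001. A higher mean in DGTT2 was found for 15 genes and a lower one for 17. In 27 of 32 genes (84.4%, against 91.9% of all features) the 95% interval of the difference lay within 2-fold either way. The 5 exceptions were IAA2, IAA4, IAA13, IAA33 and IAA34.

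**Figure D1:**
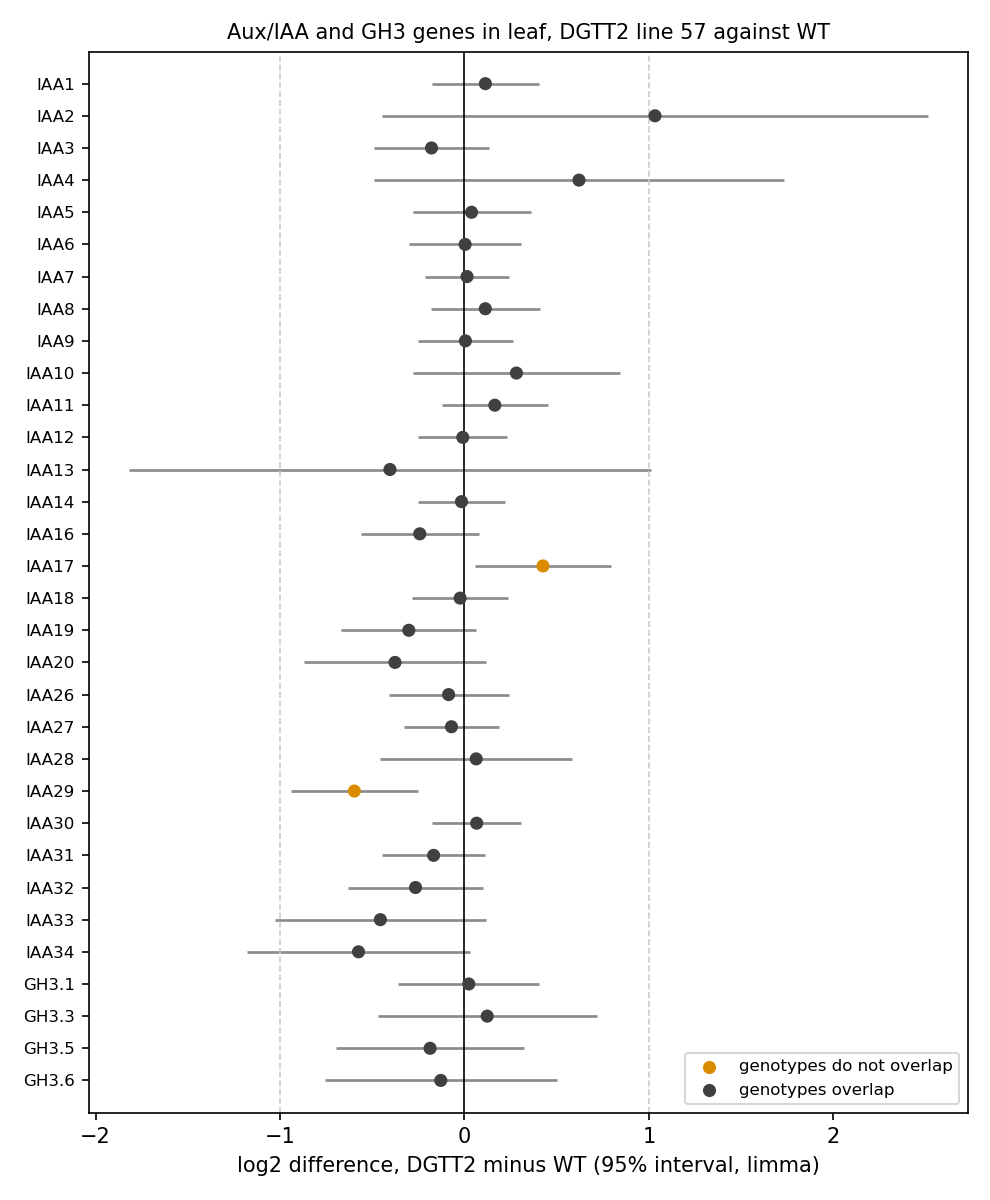
Log2 difference (DGTT2 minus WT, horizontal axis) of each of the 32 genes with its 95% interval from limma, 4 arrays per genotype. Dashed lines mark 2-fold. IAA29 at -0.60 and IAA17 at 0.43 are the 2 genes whose genotypes do not overlap, and IAA2, IAA4 and IAA13 have the widest intervals.

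The gene of smallest p was IAA29 (AT4G32280), which is known as a direct target of the phytochrome-interacting factors (PIFs), the growth-promoting regulators of shade and warmth. Its log2 values were 12.64, 12.14, 12.26 and 12.63 in WT replicates 1 to 4 and 12.09, 11.83, 11.73 and 11.64 in DGTT2 replicates 1 to 4. Every DGTT2 array lay below every WT array, the nearest being WT replicate 2 and DGTT2 replicate 1. The means were 12.42 ± 0.26 in WT and 11.82 ± 0.19 in DGTT2 (SD, n = 4). The difference was -0.60 (SE 0.15, 95% interval -0.94 to -0.25, adjusted p = 0.199, limma). It was -0.54 on slide 1 and -0.65 on slide 2, and between -0.69 and -0.52 with 1 array left out.

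IAA17 (AT1G04250, also AXR3), whose stabilised mutant form makes plants resistant to auxin, was the gene with the higher mean in DGTT2. It was at 11.28, 10.83, 11.52 and 11.61 in WT and at 11.84, 11.72, 11.72 and 11.66 in DGTT2. The DGTT2 arrays were close together and the WT arrays spread over a wider range, with WT replicate 2 the lowest. The difference was 0.43 (SE 0.16, adjusted p = 0.395, limma), with 0.38 on slide 1 and 0.47 on slide 2. Without WT replicate 2 it was 0.27 (adjusted p = 0.375). IAA3 (AT1G04240, also SHY2), which limits cell division in the root meristem, lies beside IAA17 with 1 annotated locus between them and had a difference of -0.18 (SE 0.14), which was -0.07 without DGTT2 replicate 2, its lowest array.

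Next by p came IAA34 (AT1G15050), a member that lacks the degron through which auxin receptors recognise the family. It was at 8.69, 7.76, 9.13 and 8.83 in WT and at 8.35, 7.81, 7.96 and 7.98 in DGTT2. WT replicate 2 was the lowest of the 8 arrays, while the other WT arrays were above every DGTT2 array. The difference was -0.57 (SE 0.27, adjusted p = 0.506, limma), and -0.86 without WT replicate 2 (adjusted p = 0.0915).

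IAA19 (AT3G15540, also MSG2), which acts in the bending of the hypocotyl towards light and is likewise a known PIF target, was at 11.78, 11.54, 11.52 and 12.14 in WT. In DGTT2 it was at 11.71, 11.50, 11.23 and 11.33. WT replicate 4 was the highest and the other arrays overlapped. The difference of -0.30 (SE 0.16, adjusted p = 0.573, limma) was -0.17 without WT replicate 4.

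The remaining genes of small p were dim. IAA33 (AT5G57420), which lacks the degron, was at 6.43, 5.52, 6.50 and 6.10 in WT and 5.52, 5.29, 6.22 and 5.69 in DGTT2 (difference -0.46, SE 0.25, adjusted p = 0.587, limma). IAA20 (AT2G46990), also without the degron, was at 5.93, 6.19, 6.36 and 6.17 in WT and 6.08, 6.18, 5.76 and 5.12 in DGTT2 (difference -0.38, SE 0.22, adjusted p = 0.610, limma), and at -0.15 without DGTT2 replicate 4, its lowest array. The genotypes overlapped in both. IAA20, IAA31 and IAA33 had a mean in at least 1 genotype below 5.95, which is the median over 4414 pseudogene features, so they were not shown to lie above background, and their log2 differences are not a measure of a fold change in transcript.

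**Figure D2:**
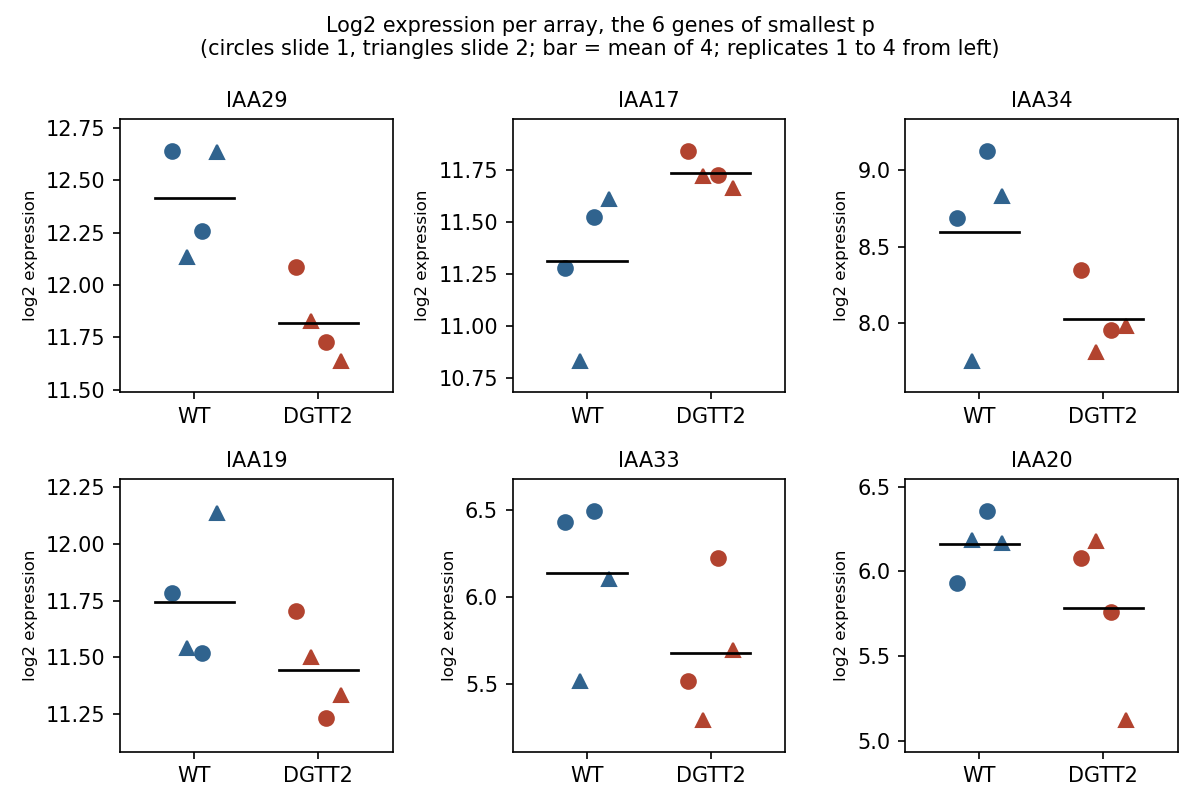
Log2 expression on each array (vertical axis, own scale per panel) for the 6 genes of smallest p, WT in blue and DGTT2 in red, circles for slide 1 and triangles for slide 2, with a bar at the mean of 4. In IAA29 every DGTT2 array is below every WT array and in IAA17 every one is above, while IAA34 overlaps through WT replicate 2 at 7.76.

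The 6 members without the canonical degron (IAA20, IAA30, IAA31, IAA32, IAA33 and IAA34) are not removed by auxin in the usual way. Of them 5 had a lower mean in DGTT2 and 1 (IAA30, AT3G62100, 0.07) a higher one, where 15259 of all 30361 features had a lower mean. The median of the 6 differences was -0.32, and 0 of 6 had an unadjusted p under 0.05 (10.5% of all features did). With slide as a block IAA33 and IAA34 did, at adjusted p = 0.428 and adjusted p = 0.399 (limma). The share of all features under that unadjusted threshold was not counted in the slide block fit. The count, the median and the mean deviations of the 6 rest in part on IAA20, IAA31 and IAA33, 3 of the 5 lower ones, whose values may be background. IAA31 (AT3G17600), whose degron is only partly kept, was at -0.17 (SE 0.12), and IAA32 (AT2G01200), which with IAA34 is known from the apical hook of the seedling, at -0.27 (SE 0.16), or -0.40 without DGTT2 replicate 1. IAA32 was at 8.45, 8.06, 8.53 and 8.52 in WT and at 8.52, 7.99, 8.06 and 7.91 in DGTT2. As in IAA34, WT replicate 2 lay with the DGTT2 arrays, but here DGTT2 replicate 1 lay with the other WT arrays. The mean deviation of the 6 genes from their averages over all arrays was 0.15, -0.15, 0.33 and 0.27 in the WT arrays and -0.002, -0.17, -0.12 and -0.30 in the DGTT2 arrays, so WT replicate 2 fell among the DGTT2 arrays. No sign of these 6 differences turned under any alternative setting run for them.

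Of the 22 canonical members, 12 were higher and 10 lower by mean in the transgenic line (median 0.005). Among them IAA1, IAA5 and IAA6 are induced early by auxin. IAA1 (AT4G14560) was at 0.11 (SE 0.13), IAA5 (AT1G15580) at 0.04 (SE 0.14) and IAA6 (AT1G52830, also SHY1) at 0.004 (SE 0.13). In IAA1 the arrays ran from 10.74 to 11.30, in IAA5 from 9.11 to 9.64 and in IAA6 from 9.32 to 9.88, and the genotypes overlapped in all of them.

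IAA2 and IAA4, both strongly induced by auxin, had the largest mean differences in the set, and both rested on a single array. IAA2 (AT3G23030) was at 12.81, 12.35 and 12.26 in WT replicates 1 to 3, at 9.32 in WT replicate 4, and at 12.84, 12.73, 12.92 and 12.38 in DGTT2. IAA4 (AT5G43700) was at 11.84, 11.44, 11.40 and 9.18 in WT and between 11.52 and 11.65 in all DGTT2 arrays. In each gene WT replicate 4 stood below all other arrays, by 2.94 and 2.21 log2 units, and those other arrays overlapped. With all arrays the differences were 1.03 (SE 0.66, adjusted p = 0.647) and 0.62 (SE 0.49, adjusted p = 0.738, limma). Without WT replicate 4 they were 0.24 and 0.03.

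IAA10 and IAA13 had the same kind of gap. IAA10 (AT1G04100), known from the early embryo, was at 9.37 in WT replicate 4 and between 10.36 and 10.62 in the other 7 arrays, and its difference of 0.28 was -0.003 without that array. IAA13 (AT2G33310), a close relative of IAA12, was at 10.82 in DGTT2 replicate 1, 12.06 in WT replicate 4, and between 13.36 and 13.81 in the other 6 arrays. Its difference was -0.40 (SE 0.63) with all arrays, 0.26 without DGTT2 replicate 1, and -0.13 without both low arrays. The residual spread of IAA2, IAA4 and IAA13 lay at the 99.7, 98.9 and 99.6 percentile of all features. A lowest array more than 1 log2 unit below the next lowest was found in 3 of 32 genes (IAA2, IAA4 and IAA13) and in 239 features in all (0.787%). Of these 239 features the lowest array was DGTT2 replicate 1 in 66, WT replicate 2 in 62, WT replicate 4 in 56 and WT replicate 3 in 24, and each of the other 4 arrays in 3 to 14. The cause of these single low values was not tested.

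**Figure D3:**
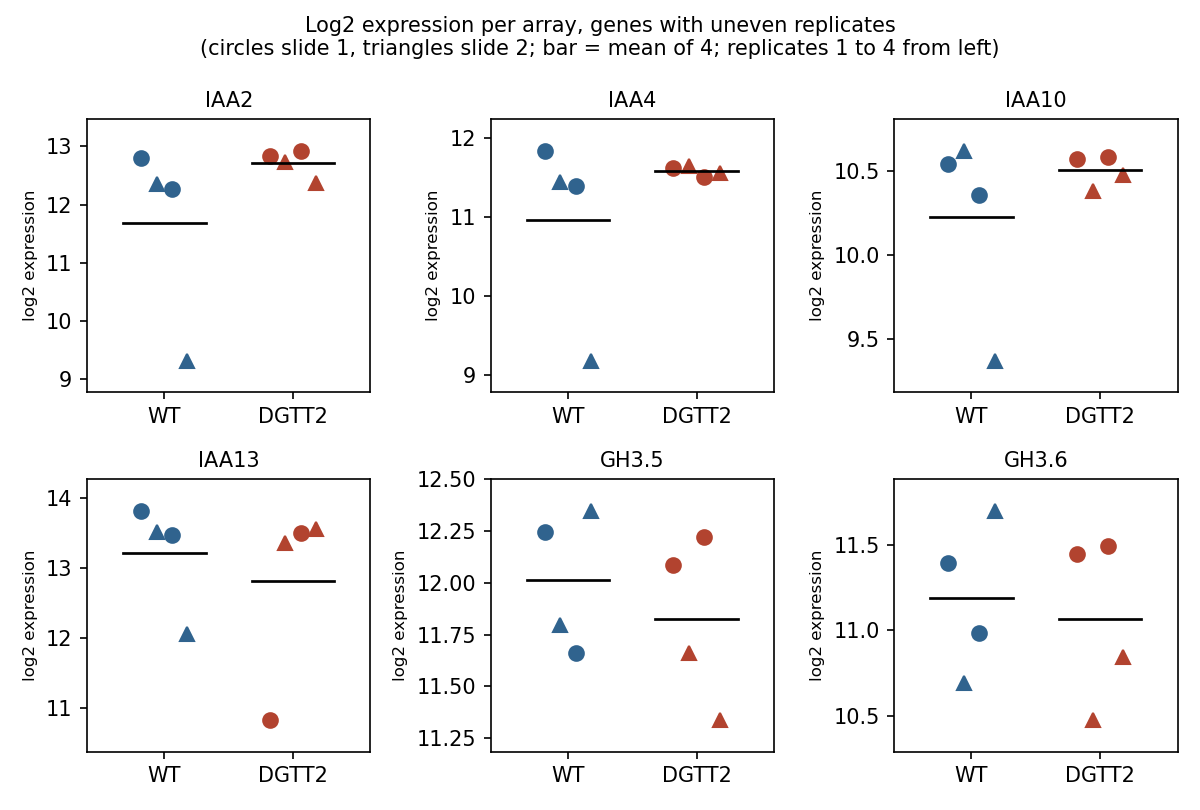
Log2 expression on each array (vertical axis, own scale per panel), WT in blue and DGTT2 in red, circles for slide 1 and triangles for slide 2, with a bar at the mean of 4. WT replicate 4 is at 9.32 in IAA2, 9.18 in IAA4 and 9.37 in IAA10, far below the other arrays, and in GH3.5 and GH3.6 the DGTT2 arrays of slide 2 lie below those of slide 1.

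Members of the IAA7, IAA14, IAA16 and IAA17 branch, known from dominant mutants with auxin-resistant growth, had intervals within 2-fold. IAA7 (AT3G23050, also AXR2) was at 13.31, 13.13, 13.27 and 13.35 in WT and 13.32, 13.25, 13.42 and 13.12 in DGTT2, a difference of 0.01 (95% interval -0.21 to 0.24). IAA14 (AT4G14550, also SLR), which blocks lateral root formation when stabilised, was at -0.02 (95% interval -0.25 to 0.22). IAA16 (AT3G04730) was at 11.63, 11.47, 11.60 and 11.67 in WT and 11.68, 11.06, 11.18 and 11.48 in DGTT2, at -0.24 (SE 0.14), and at -0.15 without DGTT2 replicate 2. The genotypes overlapped in IAA7, IAA14 and IAA16, but not in IAA17. IAA14 and IAA1 are near neighbours in the genome, as are IAA2 and IAA7, with 1 annotated locus between the genes of each pair. Their differences of -0.02 and 0.11, and of 1.03 and 0.01, are given side by side.

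The next members had intervals within 2-fold, unlike IAA13. IAA12 (AT1G04550, also BDL), which holds the factor MONOPTEROS (ARF5) in check, was at 11.74, 11.83, 11.93 and 11.63 in WT and 11.66, 11.78, 11.71 and 11.95 in DGTT2 (difference -0.01, 95% interval -0.25 to 0.23). IAA11 (AT4G28640), related to IAA10, was at 0.16 (SE 0.13), or 0.09 without WT replicate 2, and IAA18 (AT1G51950) at -0.02 (SE 0.12). IAA8 (AT2G22670) and IAA9 (AT5G65670), the latter known for its part in leaf form in tomato, were at 0.11 (SE 0.13) and 0.01 (SE 0.11). Their values, from 14.65 to 15.15 in IAA8 and 14.62 to 15.04 in IAA9, lie near the upper end of the scale (15.99), where differences may be compressed, which was not measured.

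The same held for the last canonical members. IAA26 (AT3G16500) and IAA27 (AT4G29080), which were found as partners of phytochrome, were at -0.09 (SE 0.14) and -0.07 (SE 0.11). IAA28 (AT5G25890), a repressor of lateral root founder cells, was at 9.68, 8.72, 9.03 and 8.84 in WT and 9.56, 8.78, 9.04 and 9.14 in DGTT2. It was highest in replicate 1 of both genotypes, and its difference was 0.06 (SE 0.23).

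The 4 GH3 genes had no common direction and a wide spread within genotypes, and all 4 intervals lay within 2-fold (91.9% of all features did). GH3.3 (AT2G23170) was at 11.18, 10.74, 10.79 and 11.26 in WT and 11.46, 11.67, 10.94 and 10.41 in DGTT2, so the highest and the lowest array were both DGTT2 (difference 0.12, SE 0.26). GH3.5 (AT4G27260, also WES1), which acts on auxin and on salicylate, was at 12.24, 11.80, 11.66 and 12.35 in WT and 12.09, 11.66, 12.22 and 11.34 in DGTT2 (difference -0.19, SE 0.23). GH3.6 (AT5G54510, also DFL1), which shortens the hypocotyl in the light when overexpressed, was at 11.39, 10.69, 10.99 and 11.70 in WT and 11.45, 10.47, 11.49 and 10.85 in DGTT2 (difference -0.13, SE 0.28).

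All 4 adjusted p-values of the GH3 genes were 0.850 or above (limma). In GH3.5 and GH3.6 the DGTT2 arrays of slide 2 lay below those of slide 1, by 0.66 and 0.81 on average, while in WT the slides differed by 0.12 and 0.01. The differences between genotypes were accordingly 0.20 and 0.28 on slide 1 and -0.57 and -0.54 on slide 2, and this contrast between slides was not tested. GH3.5 was at -0.02 without DGTT2 replicate 4. GH3.1 (AT2G14960) was dim, between 6.15 and 6.95, with a difference of 0.02 (SE 0.17). The residual spread of GH3.3, GH3.5 and GH3.6 lay at the 91.7, 85.6 and 93.2 percentile of all features.

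Across the set no array was lowest in most genes. WT replicate 2 was the lowest array in 8 of 32 genes (14.7% of all features) and DGTT2 replicate 4 in 7 (9.97%), while WT replicate 3 and DGTT2 replicate 3 were lowest in 1 each (12.7% and 13.0%).

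**Figure D4:**
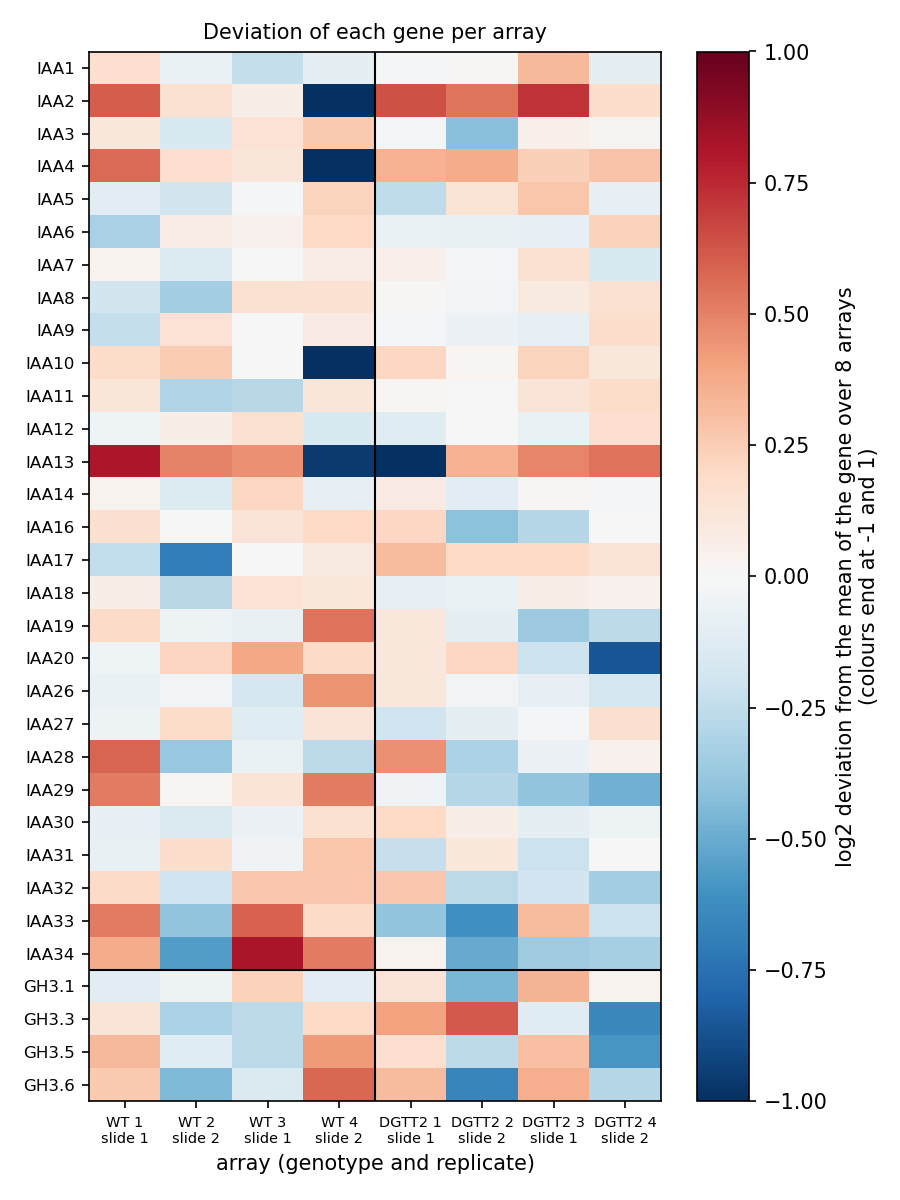
Deviation of each gene from its own mean over the 8 arrays (colour, log2, ending at -1 and 1), with genes as rows and arrays as columns, WT left of the vertical line and the GH3 genes below the horizontal line. IAA29 is below its mean in all 4 DGTT2 columns and in no WT column, and the darkest blue cells, of IAA2, IAA4, IAA10 and IAA13, fall in WT replicate 4 and DGTT2 replicate 1.

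The other genes of the auxin pathway, 98 in 10 lists, are given beside them, with 0 called by limma (0.0725% of all features were). At an unadjusted p under 0.05 there were 6 of these genes (6.12%, against 10.5% of all features), 3 with a higher and 3 with a lower mean. In 1 of the 98 every DGTT2 array lay above every WT array and in 2 below, where 5.64% of all features did not overlap. The median difference of the 98 genes was -0.02. GH3.2 (AT4G37390), a close relative of the 4 GH3 genes described above that also joins auxin to amino acids, had the smallest p of them. It was at 7.97, 7.83, 7.14 and 7.96 in WT and at 9.09, 9.08, 8.43 and 8.31 in DGTT2, with every DGTT2 array above every WT array. The difference was 1.002 (SE 0.24, adjusted p = 0.186, limma), or 1.20 on slide 1 and 0.80 on slide 2. GH3.4, of the same group, was dim, between 6.26 and 7.00, with a difference of -0.27 (SE 0.16). Of the 7 other GH3 genes 1 had an unadjusted p under 0.05 (14.3%, against 10.5% of all features).

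Transcripts of the perception machinery differed little. Among the 6 receptors, 7 subunits and activators of their ubiquitin ligase and 5 TOPLESS proteins, 0 of 18 had an unadjusted p under 0.05. All 18 intervals lay within 2-fold (91.9% of all features did). Values of these 18 genes, from 12.48 to 14.89, lie toward the upper end of the scale (15.99), where differences may be compressed, which was not measured. TIR1, the founding member of the receptor family, was at -0.18 (SE 0.10), AFB2 at -0.07, the scaffold CUL1 at 0.12, its adaptor ASK2 at -0.08, TPR4 at -0.10 and TPR1 at 0.03. Of the 15 ARFs, 14 had a lower mean in DGTT2, as did 15259 of all 30361 features. The ARF differences were small (median -0.05, from -0.23 to 0.03), and 0 were at an unadjusted p under 0.05. The activators ARF19 and ARF5 were at -0.23 (SE 0.11) and -0.20 (SE 0.11).

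Among genes of auxin synthesis, with a median difference of -0.11, 1 of 14 had an unadjusted p under 0.05 (7.14%, against 10.5% of all features). This was YUC8, a flavin monooxygenase of the last step of synthesis that is induced by PIFs in shade and warmth. It was at 9.70, 8.97, 9.84 and 10.73 in WT and 9.31, 9.23, 8.80 and 8.50 in DGTT2 (difference -0.85, SE 0.34, adjusted p = 0.415, limma), and at -0.54 without WT replicate 4. WT replicate 4 was the highest in YUC8 as in IAA19, and WT replicate 2 lay among the DGTT2 arrays. YUC6 was at -0.21 (SE 0.09), with every DGTT2 array below every WT array.

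Of the 7 genes that inactivate auxin or release it from stores, UGT84B1 was at -0.53 (SE 0.19) and UGT74D1 at 0.26 (SE 0.12). DAO2 had the largest difference of the 7, 1.17 (SE 0.53, adjusted p = 0.495, limma). It was at 7.41, 5.99, 5.79 and 6.61 in WT and 8.50, 8.61, 6.66 and 6.69 in DGTT2, and the genotypes overlapped. A higher mean in DGTT2 was found for 6 of the 7, and for 49.7% of all features. At an unadjusted p under 0.05 there was 1, UGT84B1 (14.3%, against 10.5% of all features). UGT84B1 was dim, with a DGTT2 mean of 5.43. In auxin transport PIN5, of the endoplasmic reticulum, was at 0.41 (SE 0.17) and PIN2, which is known from the root and was dim here, at -0.16 (SE 0.13), with a list median of -0.01 over 14 genes. Of 17 SAUR genes, small auxin-induced regulators of cell expansion, SAUR9 was at 0.56 (SE 0.18) and SAUR10 at -0.46 (SE 0.17), with a list median of 0.05. Many SAUR genes are near-identical neighbours, and whether the probes tell them apart is not known here. All 6 other auxin-induced genes had lower means in DGTT2 (median -0.11), with LBD29 at -0.24 and LBD16 at -0.22, both dim. In LBD29 every DGTT2 array lay below every WT array. Of these 6 genes 0 had an unadjusted p under 0.05, and 15259 of all 30361 features had a lower mean.

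**Figure D5:**
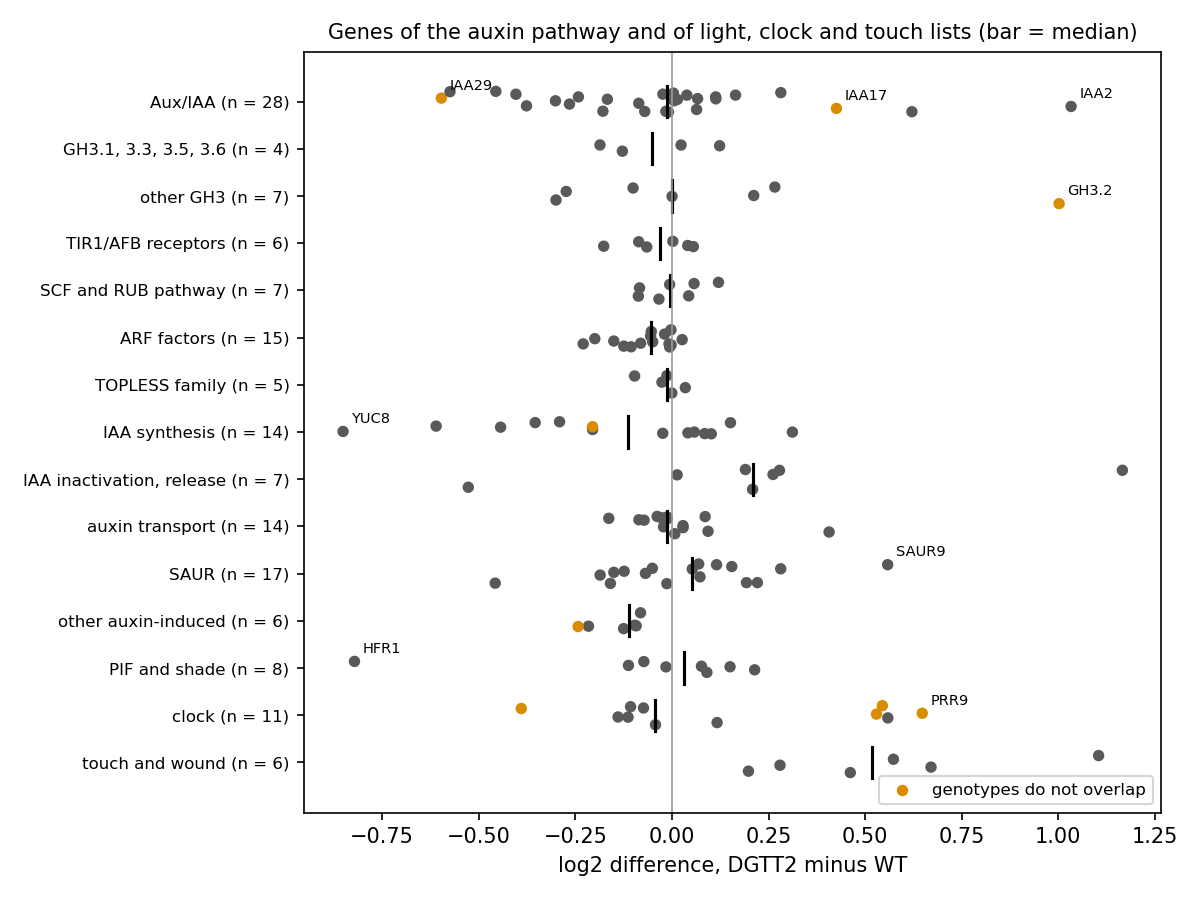
Log2 difference (DGTT2 minus WT, horizontal axis) of every gene in the auxin lists and in the light, clock and touch lists, 1 point per gene, with a bar at the list median and orange points where the genotypes do not overlap. Medians of the auxin lists lie between -0.11 and 0.21, and GH3.2 at 1.002 lies apart from the other GH3 genes.

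Since IAA29 and IAA19 are also known to follow light and the clock, those lists are set beside them. The 5 PIF genes lay between -0.07 and 0.15, and of 8 PIF and shade genes 0 had an unadjusted p under 0.05 (median 0.03). HFR1, a shade-induced partner of the PIFs, was at 11.10, 9.97, 10.82 and 10.95 in WT and 10.79, 9.11, 10.37 and 9.29 in DGTT2, and its difference of -0.82 (SE 0.40, adjusted p = 0.521, limma) was -0.38 on slide 1 and -1.26 on slide 2. HB2, a classic shade marker, was at 0.21 (SE 0.11). Of 11 clock genes 5 had an unadjusted p under 0.05 (45.5%, against 10.5% of all features), 4 with a higher and 1 with a lower mean. In 3 clock genes every DGTT2 array lay above every WT array and in 1 below, where 5.64% of all features did not overlap. PRR9 was at 0.65 (SE 0.12) and CCA1 at 0.54 (SE 0.13), and 0 clock genes passed over all features. The 6 touch and wound genes, whose transcripts move within minutes of handling, all had higher means in DGTT2 (median 0.52), where 49.7% of all features did. Of the 6 genes 1 had an unadjusted p under 0.05 (16.7%, against 10.5% of all features). Their mean deviation was -0.02, 0.70, -0.87 and -0.91 in the WT arrays and 0.13, -0.001, 0.11 and 0.86 in the DGTT2 arrays, so both genotypes ranged widely, with TCH3 at 0.28 (SE 0.11) and ERF6 at 0.57 (SE 0.32). Without WT replicate 4 ERF6 was at 0.31, and without WT replicate 2 at 0.83. Whether clock phase, light or touch bears on the values of IAA29, IAA19 or YUC8 was not tested.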

How the data were processed

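Per the submitters' processing notes, RMA and Partek were used to make the deposited log2 values. Not given in the sources used here are settings, probes per feature and genome build. That these deposited values are log2 rests on their range, 4.20 to 15.99. Because RMA equalises the arrays' distributions, a shift of most genes in 1 direction would go unseen. The number of arrays limits the precision, and no detection calls were used.

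The fit took all 30361 features, with genotype as the only term (limma 3.58.1, functions lmFit and eBayes, two-sided, R 4.3.3), and Benjamini-Hochberg adjustment over all features and a threshold of 0.05. Genes were read from this fit by locus. All 32 loci and the 147 genes of 17 other lists were on the array; 7 members have another first symbol in RefSeq (TAIR10.1), which was used for names, biotypes and neighbours only. Members and lists were chosen with earlier results of these data known. Values on every array are given for the 6 members of smallest p and those without overlap. The 2 genes of smallest p are named from each other list except the tissue markers. DAO2 was named in addition for the size of its difference. Other genes shown on every array were chosen after their values were seen. Alternatives were 3 renormalizations, a filter on features below the lower quartile, slide as fixed or random block (statmod 1.5.0), replicate number as block, trend with robust, array weights, each array left out and each slide alone. The fit was tested on simulated data. Protein and promoter sequences were not used here.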

Additional observations from a re-analysis of the deposited data

Results flagged for a closer look

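In 64 groups of 4 arrays (32 genes in 2 genotypes), 5 had an array far from the other 3, where chance alone flags about 1 in 20. IAA2 in WT replicate 4 was at 9.32 against 12.26 to 12.81 in the other WT arrays, and IAA4 in the same array at 9.18 against 11.40 to 11.84. IAA13 in DGTT2 replicate 1 was at 10.82 against 13.36 to 13.55. IAA3 in DGTT2 replicate 2 was at 12.13 against 12.52 to 12.59. IAA6 in DGTT2 replicate 4 was at 9.88 against 9.57 to 9.58, a gap of small size among nearly equal values.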

How the results depend on the processing

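None of the 32 genes was called by limma as reported or in any of 21 alternatives, 1 of them at an adjusted p under 0.1. For IAA29 the difference lay between -0.69 and -0.52 and the adjusted p between 0.0966 and 0.896 over 20 settings. Over all features, where 22 were called, there were 13 calls with arrays centred on their medians, 69 with slide as a fixed block, 3 with the replicate block, 46 with trend and robust, 1 on slide 1 alone, 1 on slide 2 alone and 118 at an adjusted p under 0.1. Leaving out arrays gave 4 (without DGTT2 replicate 1 and WT replicate 4, chosen after seeing the data) to 39 (without WT replicate 2), with 7, 6 and 6 without DGTT2 replicate 1, 3 or 4 and 9, 11 and 5 without WT replicate 1, 3 or 4. Genes of the set at an unadjusted p under 0.05 were 4 with slide as a fixed block, 4 with the replicate block, 1 on each slide alone and 1 (without WT replicate 1) to 5 (without DGTT2 replicate 1 or WT replicate 2) with arrays left out. The share of all features under that threshold was counted only in the fit as reported (10.5%), so these counts have no background beside them. Same-numbered replicates did not deviate together in all pairs (correlations 0.07, 0.20, -0.03 and -0.02), so the numbers were not taken to pair the samples. With 1 array left out IAA31 was as near 0 as -0.10, ARF5 -0.12, LBD29 -0.15, LBD16 -0.11, GH3.4 -0.17, PIN5 0.26 and PIN2 -0.06. The median difference of the set moved by less than the spread between WT arrays in all settings.

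Of the 32 genes, 15 kept their sign throughout and 17 changed it at least once, and 2 other named genes did so; the causes were not tested. With a second quantile normalization IAA5 was at -0.023, IAA6 at -0.049 and IAA28 at -0.0091. With arrays centred IAA6 was at -0.034, IAA7 at -0.024, IAA9 at -0.033, GH3.1 at -0.014 and TPR1 at -0.0032. With cyclic loess IAA6 was at -0.021. With array weights IAA7 was at -0.0097 and IAA12 at 0.018. On slide 1 alone IAA4 was at -0.049, IAA26 at 0.14, IAA28 at -0.056, GH3.5 at 0.20, GH3.6 at 0.28 and TPR1 at -0.0044. On slide 2 alone IAA6 was at -0.059, IAA7 at -0.057, IAA9 at -0.053, IAA12 at 0.13, IAA13 at 0.68, IAA14 at 0.044, IAA18 at 0.069 and GH3.1 at -0.13. With arrays left out the ranges were -0.047 to 0.21 for IAA5, -0.10 to 0.093 for IAA6, -0.034 to 0.067 for IAA7, -0.073 to 0.054 for IAA9, -0.026 to 0.41 for IAA10, -0.066 to 0.040 for IAA12, -0.79 to 0.26 for IAA13 and -0.076 to 0.052 for IAA14. They were -0.12 to 0.033 for IAA18, -0.16 to 0.048 for IAA26, -0.14 to 0.014 for IAA27, -0.16 to 0.27 for IAA28, -0.085 to 0.18 for GH3.1, -0.060 to 0.36 for GH3.3, -0.30 to 0.069 for GH3.6 and -0.12 to 0.015 for AFB2.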
